A study of Mus musculus with 4 samples.

Results

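Transcripts of the proteasome and of the ubiquitin-conjugating (E2) enzymes were followed through an anti-YTHDF2 RNA immunoprecipitation (RIP) of the newborn mouse retina. Members were the genes of the count table whose symbol starts with Psm, a letter from a to g and a number, or with Ube2 and a letter, leaving out names that end in -ps. This gave 94 of 52550 genes, 52 with a Psm symbol and 42 with a Ube2 symbol. Spelling alone chose them, so they include *Psmc3ip*, a factor of meiotic recombination, *Ube2cbp*, an E2-binding protein, and *Ube2uos*, an opposite-strand gene. They also include 4 numbered pseudogenes (*Psmb6-ps2*, *Psmb7-ps2*, *Ube2l3-ps1* and *Ube2n-ps1*). All of these are kept apart from the E2 enzymes and proteasome subunits.

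All 4 libraries came from retina of wild-type C57BL/6 mice at P0, the day of birth, with no treatment and no altered allele. Each of 2 biological replicates gave an input library, the RNA of the dissociated retina before the pulldown, and a RIP library, the RNA that came down with an antibody against YTHDF2. The number of animals behind a replicate is not given in the sources used here, and a pulldown with control IgG is not analysed here, so input is the background for every RIP value. The comparison asks which transcripts were held by YTHDF2 more or less than their share of the input.

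The proteasome is the protease that degrades proteins tagged with ubiquitin. Its 20S core is a barrel of outer alpha rings and inner beta rings, the beta rings holding the active sites, and the 19S regulatory particle at its ends unfolds substrates with a ring of ATPases and recognises and removes ubiquitin with its non-ATPase subunits. Ubiquitin reaches a substrate through an E1 that activates it, an E2 that carries it and an E3 that selects the target. YTHDF2 is a cytoplasmic reader of N6-methyladenosine (m6A) in mRNA and promotes decay of the mRNAs it binds.

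In replicates 1 and 2, total counts were 39499994 and 36236531 for input and 19530226 and 24903212 for RIP. Counts on protein-coding genes were 4088424 and 4175459 against 2203538 and 2083594. The ribosomal-RNA-like genes *AY036118* and *CT010467.1* took 55.5% and 55.0% of the input and 85.3% and 87.8% of the RIP counts. Levels are given below as CPM, counts scaled to a common library size with factors from the trimmed mean of M values (TMM), and differences as log2 fold changes of RIP against input with their standard errors (SE), from edgeR's quasi-likelihood test with Benjamini-Hochberg adjustment over 13632 genes. A gene was called at an adjusted p below 0.05. Summed FPKM of retinal ganglion cell markers was 36.2 to 41.5 for input and 10.6 to 14.4 for RIP. That of progenitor markers was 144 to 182 and 128 to 177. *Ccnd1* held 81.8 to 117 FPKM of the progenitor sum in the inputs, and *Sncg* 14.6 to 21.7 FPKM of the ganglion cell sum. Photoreceptor markers summed to 35.7 to 46.3 FPKM for input and 54.4 to 71.6 for RIP. Amacrine and horizontal markers summed to 12.1 to 19.1 and 10.5 to 14.1. These sums are of the deposited FPKM, to which the TMM factors were not applied. On the TMM scale the median log2 fold change was -0.71 for ganglion cell and -0.41 for progenitor markers. It was 0.30 for photoreceptor and -0.62 for amacrine and horizontal markers. Called lower were 4 of 11 ganglion cell, 3 of 10 progenitor, 1 of 9 amacrine and horizontal and 0 of 8 tested photoreceptor markers. None was higher, and 9.78% of all genes were lower. Lens markers were at 0 in every library for 6 of 10 genes, pigment epithelium markers for 4 of 8 (among them *Rpe65*) and erythroid markers for 2 of 7. Microglia markers summed to 1.13 to 2.07 FPKM, and none of the 10 was at 0 in every library. Input and RIP of a replicate were taken from the same dissociated retina, so the comparison does not measure numbers of cells of a type. Which cell types a RIP value came from was not tested.

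Of the 94 members, 80 had enough counts to test, 46 with Psm and 34 with Ube2 symbols. RIP was lower for 19 members (23.8%) and higher for none, where 9.78% of all genes tested were called lower and 3.48% higher. The proteasome symbols gave 13 of 46 (28.3%) and the Ube2 symbols 6 of 34 (17.6%). At an unadjusted p below 0.05, 1 member was higher in RIP, *Ube2o*, where 11.5% of all genes were, and DESeq2 and limma on FPKM also called none higher. With a log2 fold change of -1 or lower and an unadjusted p below 0.05, 29 members (20 Psm and 9 Ube2) were lower against 17.2% of all genes, and none was higher by the same rule against 9.43% of all genes.

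The lower side was also where most uncalled members lay. Of the 80 tested members 63 had a log2 fold change below 0, against 51.9% of all genes tested, and in 52 both RIP libraries lay below both inputs, against 31.3% of all genes. Both RIP libraries lay above both inputs in 9 members, against 29.6% of all genes. The median log2 fold change was -0.86 over members, -0.92 over Psm symbols and -0.75 over Ube2 symbols (-0.41 without input replicate 1), and -0.05 over all genes. Within replicate 1 the median log2 ratio of RIP to input over members was -0.93, and within replicate 2 it was -0.59.

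How many members were called depended on each of the libraries, as did the number of genes called in all. Without input replicate 1, 33 members were lower and 5 higher, against 18.1% and 16.7% of all genes tested in that fit. Without input replicate 2, 45 were lower and 4 higher, against 19.8% and 18.2% of all genes. In these fits the lone input library was assumed to vary like the RIP libraries, so the spread between inputs was not measured. Calls in them are thus no check on the inputs. Without RIP replicate 1 no member was called, where 0.756% of all genes were lower and 0.054% higher, and without RIP replicate 2 *Psmg1* alone was, where 1.2% were lower and 0.0604% higher. The log2 fold changes stayed large with 1 RIP library, at -2.23 and -2.85 for *Psma4*, -2.22 and -1.91 for *Psmc1*, -3.48 and -3.14 for *Ube2c* and -2.11 and -2.34 for *Ube2l3* without RIP replicate 1 and 2. Each of the 19 member calls thus needed both RIP libraries to pass the threshold. With the replicate number as a block, 23 members were lower and none higher, against 11.8% and 5.29% of all genes, and all 19 were still called. Scaled by library size alone, which moved the median of all genes from -0.05 to 0.27, 12 members were lower, 11 of them among the 19, and none higher, against 7.32% and 6.2% of all genes.

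**Figure D1:**
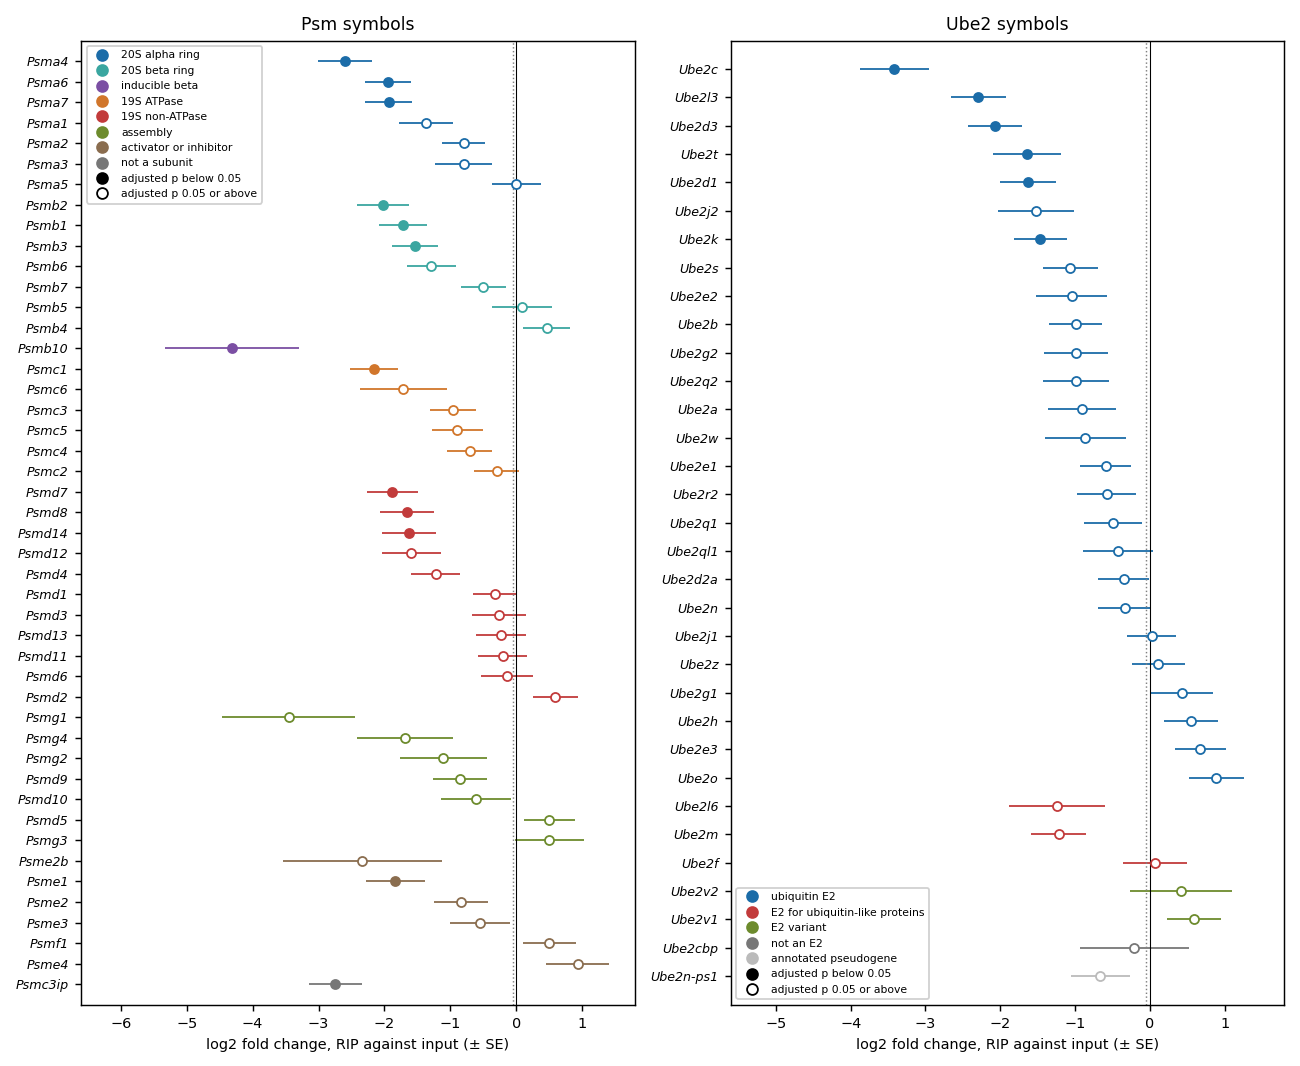
Log2 fold change of RIP against input for the tested members (x axis, points with bars of 1 SE; left Psm symbols, right Ube2 symbols, 1 of which is not shown), coloured by role and filled at an adjusted p below 0.05. The dotted line is the median of all genes tested at -0.05, and all 19 filled points lie to its left.

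Among the 20S alpha subunits, which gate the entry of the core, 3 of 7 tested were lower in RIP and none higher. Of all genes tested 9.78% were lower and 3.48% higher. The median log2 fold change of the alpha subunits was -1.37. With length and GC trends taken out and the replicate block the median was -0.40 and none of the 7 was called. *Psma4* (9:54950790-54958030, plus strand; GRCm38) had 10.3 and 10.9 CPM before the pulldown and 1.39 and 2.12 CPM in RIP. RIP was 6.05-fold lower, a log2 fold change of -2.60 ± 0.40 (SE, edgeR adjusted p = 0.00539). The groups were far apart, with the higher RIP library well under the lower input.

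*Psma6* stood at 17.3 and 15.3 CPM in the inputs and 4.56 and 3.91 CPM in RIP, a log2 fold change of -1.95 ± 0.35 (adjusted p = 0.00952, edgeR). *Psma7* stood at 17.7 and 13.2 CPM in the inputs and 4.16 and 3.91 CPM in RIP, a log2 fold change of -1.94 ± 0.36 (adjusted p = 0.0112, edgeR). In both genes the RIP libraries lay close together and below both inputs. *Psma1* missed the threshold (-1.37 ± 0.41, adjusted p = 0.0597, edgeR) and passed it with the replicate block (adjusted p = 0.0354). *Psma2* and *Psma3*, both at -0.80, had RIP values below both inputs without passing the test. *Psma5* did not separate at all: its inputs were 6.12 and 4.63 CPM and its RIP libraries 5.75 and 5.03 CPM, a log2 fold change of 0.00 ± 0.37. The testis form *Psma8* was not tested for want of counts.

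Of the 7 constitutive 20S beta subunits 3 were lower in RIP and none higher, against 9.78% and 3.48% of all genes tested. Their median log2 fold change was -1.29 (0.42 with length and GC trends taken out). *Psmb2*, a non-catalytic subunit, had 16.6 and 12.9 CPM in the inputs and 4.44 and 2.79 CPM in RIP, a log2 fold change of -2.03 ± 0.39 (adjusted p = 0.0133, edgeR). *Psmb1* had 11.8 and 9.82 CPM in the inputs and 3.53 and 3.04 CPM in RIP, a log2 fold change of -1.72 ± 0.36 (adjusted p = 0.0187, edgeR). *Psmb3* had 15.1 and 11.9 CPM in the inputs and 4.84 and 4.49 CPM in RIP, a log2 fold change of -1.53 ± 0.35 (adjusted p = 0.0248, edgeR). All 3 are subunits without an active site, and in each the groups did not overlap.

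None of the constitutive catalytic subunits passed the test. *Psmb6*, the caspase-like subunit, had 25.5 and 15.8 CPM in the inputs and 8.64 and 8.27 CPM in RIP. Its log2 fold change of -1.29 ± 0.37 missed the threshold (adjusted p = 0.053, edgeR). DESeq2 called *Psmb6* lower, as did edgeR with at least 10 counts required in every library. *Psmb7*, the trypsin-like subunit, had 10.4 and 8.74 CPM in the inputs and 6.70 and 6.86 CPM in RIP (-0.50 ± 0.34, adjusted p = 0.366, edgeR). *Psmb5*, the chymotrypsin-like subunit, overlapped between groups, with inputs of 3.51 and 1.75 CPM and RIP libraries of 2.70 and 2.91 CPM (0.09 ± 0.46, adjusted p = 0.913, edgeR; -0.33 without input replicate 2). *Psmb4*, again without an active site, had inputs of 7.41 and 5.77 CPM and both RIP libraries above them at 8.13 and 10.02 CPM (0.46 ± 0.35), short of the test. Whether the beta subunits differed from each other was not tested.

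The inducible beta subunits replace the catalytic ones in the immunoproteasome, *Psmb8* in place of *Psmb5*, *Psmb9* in place of *Psmb6* and *Psmb10* in place of *Psmb7*. *Psmb8* and *Psmb9* had 0 counts in all 4 libraries. A count of 0 allows up to 3 counts, or 0.0900 and 0.0874 CPM in the inputs and 0.119 and 0.125 CPM in RIP, so nothing was detectable at this depth above those levels. *Psmb10* was counted in the inputs with 47 and 40 reads, and in RIP with 3 and 0. RIP over input was 4.73% in TMM-scaled counts, with an exact 95% interval of 0.958 to 14.3% that covers counting error only (adjusted p = 0.0278, edgeR). *Psmb10* passed the low-count filter through its inputs alone, and without that filter it was not called. Nor was it called with length and GC trends taken out and the replicate block (adjusted p = 0.0881, edgeR). Its constitutive partner *Psmb7* was counted with 347 and 300 reads in the inputs and 169 and 165 in RIP.

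The 19S ATPases unfold substrates and open the core. All 6 had log2 fold changes below 0, against 51.9% of all genes tested, with a median of -0.92. That median was -0.60 without input replicate 1, and -0.19 with length and GC trends taken out and the replicate block. Called lower was 1 of the 6, against 9.78% of all genes tested. *Psmc1* (12:100110154-100123405, plus strand) had 38.0 and 27.8 CPM in the inputs and 8.17 and 6.53 CPM in RIP, 4.47-fold lower, a log2 fold change of -2.16 ± 0.36 (adjusted p = 0.00744, edgeR). *Psmc3*, *Psmc5*, *Psmc4* and *Psmc2* lay between -0.96 and -0.30, each with both RIP libraries below both inputs and none past the test. *Psmc6* differed more between the inputs (3.54 and 17.2 CPM) than between groups, its RIP libraries being at 3.61 and 2.70 CPM (-1.71 ± 0.66).

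The 11 non-ATPase subunits of the 19S particle spread more widely, with 3 lower and none higher, against 9.78% and 3.48% of all genes tested. Their median log2 fold change was -0.33 (0.0081 by library size alone and -0.68 without input replicate 2). *Psmd7*, partner of the deubiquitinase *Psmd14*, had 17.8 and 11.1 CPM in the inputs and 3.61 and 4.24 CPM in RIP, a log2 fold change of -1.88 ± 0.39 (adjusted p = 0.0168, edgeR). *Psmd8*, a lid subunit, had 27.8 and 13.7 CPM in the inputs and 6.58 and 6.57 CPM in RIP, a log2 fold change of -1.66 ± 0.42 (adjusted p = 0.0346, edgeR). *Psmd14*, the subunit that removes ubiquitin from substrates, stood at 5.13 and 4.87 CPM in the inputs and 1.90 and 1.33 CPM in RIP (-1.62 ± 0.41, adjusted p = 0.0346, edgeR). In all 3 the RIP libraries lay below both inputs.

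*Psmd12* lay just outside the call (-1.59 ± 0.45, adjusted p = 0.0506, edgeR) and was called with the replicate block (adjusted p = 0.0194). *Psmd4*, the ubiquitin receptor, was at -1.22. The largest subunits, *Psmd1* and *Psmd2*, which form the scaffold of the particle, were at -0.33 ± 0.34 and 0.59 ± 0.34, and *Psmd2* was the single 19S subunit above 0. Its inputs were 13.3 and 9.71 CPM and its RIP libraries 17.8 and 16.9 CPM, which do not overlap but missed the test (adjusted p = 0.28, edgeR). *Psmd3*, *Psmd13*, *Psmd11* and *Psmd6* overlapped between groups.

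None of the 7 assembly chaperones passed the test, where 9.78% of all genes tested were lower and 3.48% higher. *Psmg1*, which with *Psmg2* starts the alpha ring, was counted with 145 and 70 reads in the inputs and with 0 and 14 in RIP. Its log2 fold change had an SE of 1.01 (adjusted p = 0.0568, edgeR), and its log2 ratios within replicates were -7.78 and -1.77. With the replicate block it was called (adjusted p = 1.00e-05, edgeR). That value rests on low RIP counts, and deviations of same-numbered libraries had a Spearman correlation of -0.032 over all genes tested. *Psmg4*, the chaperone with the highest mean input FPKM, had 2.25 and 1.49 CPM in the inputs and 0.198 and 0.956 CPM in RIP (-1.69 ± 0.73, adjusted p = 0.161, edgeR). *Psmg3* and *Psmd5* were at 0.50 and *Psmd9* at -0.85.

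Of the 6 activators and inhibitors 1 was lower and none higher, against 9.78% and 3.48% of all genes tested. *Psme1* and *Psme2* encode the alpha and beta chains of the 11S activator PA28. *Psme1* had 4.56 and 3.12 CPM in the inputs and 1.23 and 0.915 CPM in RIP (-1.84 ± 0.45, adjusted p = 0.0317, edgeR), and *Psme2* had 3.27 and 2.74 CPM in the inputs and 1.70 and 1.66 CPM in RIP (-0.83 ± 0.41, adjusted p = 0.214, edgeR). RIP lay below both inputs in both chains, and the difference between the chains was not tested. *Psme3*, the nuclear PA28 gamma, overlapped between groups, with inputs of 27.7 and 11.2 CPM and RIP libraries of 14.6 and 12.1 CPM (-0.54 ± 0.45, adjusted p = 0.463, edgeR; 0.25 without input replicate 1).

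*Psme4*, which encodes the activator PA200, had the highest log2 fold change of all members, 0.94 ± 0.48 (adjusted p = 0.228, edgeR). Its inputs differed widely, at 3.12 and 8.39 CPM, and its RIP libraries lay close together above them at 10.8 and 11.2 CPM. The inhibitor *Psmf1* (PI31) was at 0.50 with overlapping groups, and *Psme2b*, a near copy of *Psme2*, was counted 23 and 13 times in the inputs against 0 and 5 times in RIP. *Psmc3ip*, which shares only its spelling with the 19S ATPases, was among the clearest differences: 8.28 and 6.99 CPM in the inputs against 1.11 and 1.16 CPM in RIP (-2.74 ± 0.40, adjusted p = 0.00416, edgeR).

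**Figure D2:**
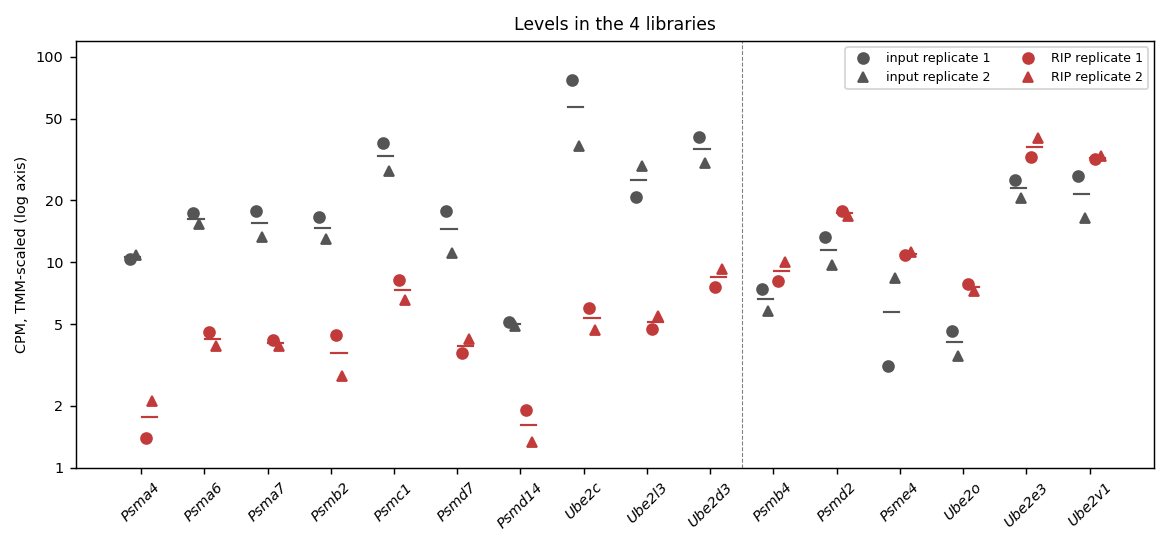
Level of 16 named members in each library in TMM-scaled CPM (y axis, log scale), by gene (x axis), with 1 point per library (grey input, red RIP; circles replicate 1, triangles replicate 2) and a bar at each group's mean. Left of the dashed line are 10 called members, whose RIP points lie below both inputs, and right of it 6 members whose RIP points lie above both inputs without passing the test.

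The 26 tested E2 enzymes of ubiquitin gave 6 lower and none higher, against 9.78% and 3.48% of all genes tested. Their median log2 fold change was -0.89 (-0.41 without input replicate 1 and -0.24 with length and GC trends taken out and the replicate block). *Ube2c* (2:164769898-164778822, plus strand), the E2 that works with the anaphase-promoting complex in mitosis, had the highest mean FPKM of all members in the inputs. Its levels were 77.3 and 36.9 CPM in the inputs and 5.99 and 4.70 CPM in RIP. RIP was 10.7-fold lower, a log2 fold change of -3.42 ± 0.46 (adjusted p = 0.00289, edgeR). The inputs differed between each other, and both were well above either RIP library.

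*Ube2l3* (16:17152013-17202649, minus strand), the E2 of parkin and other RBR and HECT ligases, had 20.8 and 29.3 CPM in the inputs and 4.72 and 5.49 CPM in RIP, a log2 fold change of -2.30 ± 0.37 (adjusted p = 0.00594, edgeR). *Ube2d3* (3:135438149-135468198, plus strand), a promiscuous E2 used by many RING ligases, had 40.6 and 30.3 CPM in the inputs and 7.57 and 9.31 CPM in RIP, a log2 fold change of -2.07 ± 0.36 (adjusted p = 0.00845, edgeR). Neither gene overlapped between groups. *Ube2d1*, of the same subfamily, went from 15.2 and 9.85 to 3.92 and 4.16 CPM (-1.63 ± 0.38, adjusted p = 0.0261, edgeR), while *Ube2d2a* was at 22.2 and 16.3 CPM in the inputs and 14.6 and 15.6 CPM in RIP (-0.35 ± 0.34, adjusted p = 0.533, edgeR).

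The other E2s that passed were *Ube2t*, the E2 of the Fanconi anaemia pathway (-1.65 ± 0.45, adjusted p = 0.0472, edgeR), and *Ube2k*, which builds K48-linked chains (-1.46 ± 0.35, adjusted p = 0.0294, edgeR). *Ube2j2*, an E2 of the endoplasmic reticulum, was at -1.52 and was called only with the replicate block (adjusted p = 0.0306), whereas its relative *Ube2j1* was at 0.02 with overlapping groups. *Ube2s*, which extends chains that *Ube2c* starts, had 25.8 and 15.8 CPM in the inputs and 9.24 and 10.7 CPM in RIP (-1.06 ± 0.37) and missed the test (adjusted p = 0.0968, edgeR).

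At the upper end of the E2s were *Ube2o*, *Ube2e3*, *Ube2h* and *Ube2g1*, each with both RIP libraries above both inputs and none past the test. *Ube2o*, a large enzyme with E2 and E3 activity, had 4.65 and 3.50 CPM in the inputs and 7.81 and 7.28 CPM in RIP (0.89 ± 0.37, adjusted p = 0.15, edgeR). *Ube2e3* had 25.1 and 20.6 CPM in the inputs and 32.5 and 40.5 CPM in RIP (0.67 ± 0.34, adjusted p = 0.223, edgeR). Its relatives *Ube2e1* and *Ube2e2* had RIP values below both inputs, at -0.59 and -1.04, also short of the test.

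The 4 E2s of ubiquitin-like proteins held no call, where 9.78% of all genes tested were lower and 3.48% higher. The E2s of NEDD8 differed in value, with *Ube2m* at -1.22 ± 0.37 and *Ube2f* at 0.07 ± 0.43, and *Ube2l6*, the E2 of ISG15, was at -1.24 ± 0.64. The variants *Ube2v1* and *Ube2v2* lack the catalytic cysteine and pair with *Ube2n* to build K63-linked chains. *Ube2v1* had 26.5 and 16.3 CPM in the inputs and 31.7 and 32.8 CPM in RIP (0.59 ± 0.36, adjusted p = 0.312, edgeR), and *Ube2n* itself was at -0.34 with overlapping groups. *Ube2v2* was set apart by its inputs, at 1.23 and 7.26 CPM, with RIP at 5.75 and 5.61 CPM (0.42 ± 0.68, adjusted p = 0.728, edgeR; -0.35 without input replicate 1).

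Of the members kept apart from the E2 enzymes, *Ube2cbp* had counts of 25 and 18 for input and 9 and 18 for RIP (-0.21 ± 0.73, adjusted p = 0.879, edgeR). Its log2 fold change was 0.34 without RIP replicate 1, 0.072 without input replicate 1 and 0.074 by library size alone. The pseudogene *Ube2n-ps1* had input counts of 135 and 133 and RIP counts of 54 and 69 (-0.66 ± 0.39, adjusted p = 0.296, edgeR). The 14 members that were not tested were *Psma8*, *Psmb8*, *Psmb9*, *Psmb11*, *Psmb6-ps2*, *Psmb7-ps2*, *Ube2d2b*, *Ube2d4*, *Ube2dnl1*, *Ube2dnl2*, *Ube2u*, *Ube2l3-ps1*, *Ube2nl* and *Ube2uos*. *Psmb11*, the thymus form of the catalytic beta subunit, had 4 counts in input replicate 1 and 2 in RIP replicate 2, *Ube2nl* had 2 counts in input replicate 2, and the others had none in any library.

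Several members share long stretches with other genes, and how reads that match more than 1 gene were counted is not given in the sources used here. Of the 80 tested members 28 had a near-identical gene (95% identity or more over at least 100 nt), and in 10 this covered 50% or more of the transcript: *Ube2n-ps1*, *Psmd2*, *Psme2b*, *Psmb5*, *Ube2v1*, *Psme2*, *Psmc1*, *Psmb3*, *Psma5* and *Psma4*. The values of these 10 are uncertain for that reason. A further annotated gene overlapped 41 of the 80, and the strand setting of the counting is not given either.

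Across members the difference between RIP and input went with transcript length. Lengths are those of the principal transcript of GENCODE M21. Of 48 tested members under 2000 nt 16 were lower, with a median log2 fold change of -1.22, and of 32 with 2000 nt or more 3 were lower (*Ube2l3*, *Ube2d3* and *Ube2k*), with a median of -0.33. The same split was present in protein-coding genes at large: 730 of 2871 under 2000 nt were lower, with a median of -0.89, against 242 of 9082 longer ones, with a median of 0.24. Spearman's rho of log2 fold change with length was 0.48 over 80 members and 0.49 over 11953 protein-coding genes, as a description of points that share the same 4 libraries.

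Length also separated the families. The median tested Psm transcript had 1408 nt and the median Ube2 transcript 2364 nt, while the median over all genes tested was 2975 nt. All 13 lower Psm members were under 2000 nt, among 34 of that length, and none of the 12 longer ones was called. The longest member, *Psme4* with 6491 nt, had the highest log2 fold change, and *Ube2o*, with 5205 nt, the next highest. *Psmb4* with 1183 nt and *Psmb5* with 899 nt were short and not lower. GC content showed no such relation, with a rho of -0.0049 over the 80 members.

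**Figure D3:**
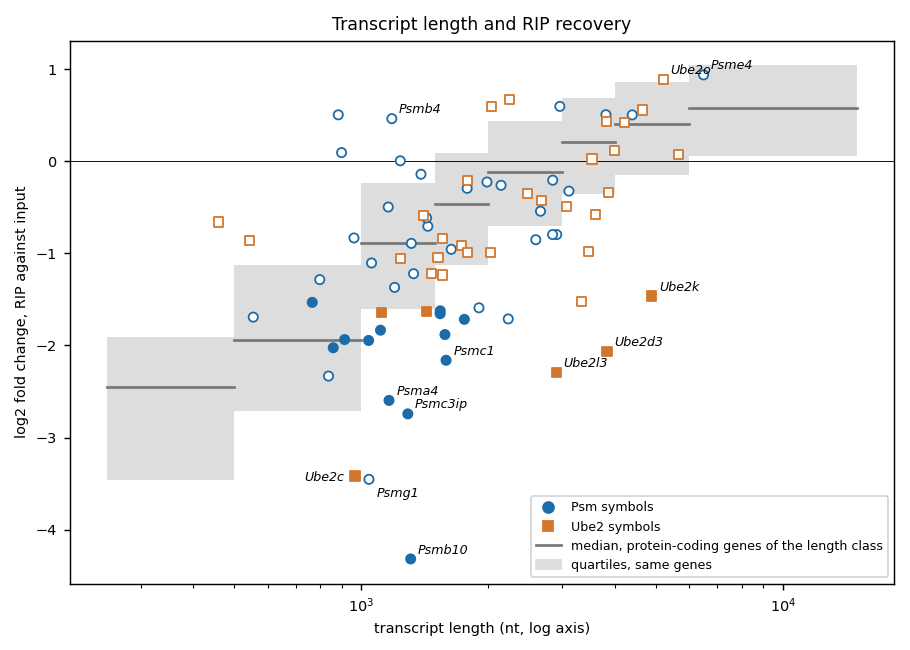
Log2 fold change of RIP against input (y axis) against principal transcript length in nt (x axis, log scale) for the 80 tested members, filled when called, with grey bars and boxes for the median and quartiles of protein-coding genes in classes of length. Members have a median of -1.22 under 2000 nt and -0.33 at 2000 nt or more, and the class medians of the protein-coding genes run from -2.45 in the shortest class to 0.58 in the longest.

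When smooth trends of log2 fold change on transcript length and GC content over all genes were taken out, with the replicate block, 6 members were lower and 4 higher, against 4.88% and 4.45% of 13619 genes with annotation. By construction this step also removes any difference in binding that itself goes with length. Lower were *Ube2l3* (-2.21, adjusted p = 0.00808), *Ube2c* (-1.90, adjusted p = 0.0113), *Psmc3ip* (-1.75, adjusted p = 0.0228), *Ube2j2* (-1.60, adjusted p = 0.0227), *Ube2k* (-1.53, adjusted p = 0.0379) and *Psmc1* (-1.46, adjusted p = 0.0238), all by edgeR. All 6 were also lower with the block and no trend step, and 5 of them, all but *Ube2j2*, with neither. *Ube2d3* (-1.89, adjusted p = 0.0501), *Psma4* (-1.31, adjusted p = 0.0501) and *Psmd7* (-1.15, adjusted p = 0.0507) came close.

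The members higher relative to the trends were *Psmg3* (1.99, adjusted p = 0.0465), *Psmb5* (1.60, adjusted p = 0.0332), *Psmb4* (1.53, adjusted p = 0.0199) and the pseudogene *Ube2n-ps1* (2.08, adjusted p = 0.0175), by edgeR. All 4 have transcripts under 2000 nt. The median over Psm symbols moved to -0.21 and over Ube2 symbols to -0.24, and that of the beta ring turned to 0.42, with *Psmb3* at 0.26, *Psmb6* at 0.42 and *Psmb7* at 0.70. The alpha ring kept a median below 0, at -0.40, with none called.

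**Figure D4:**
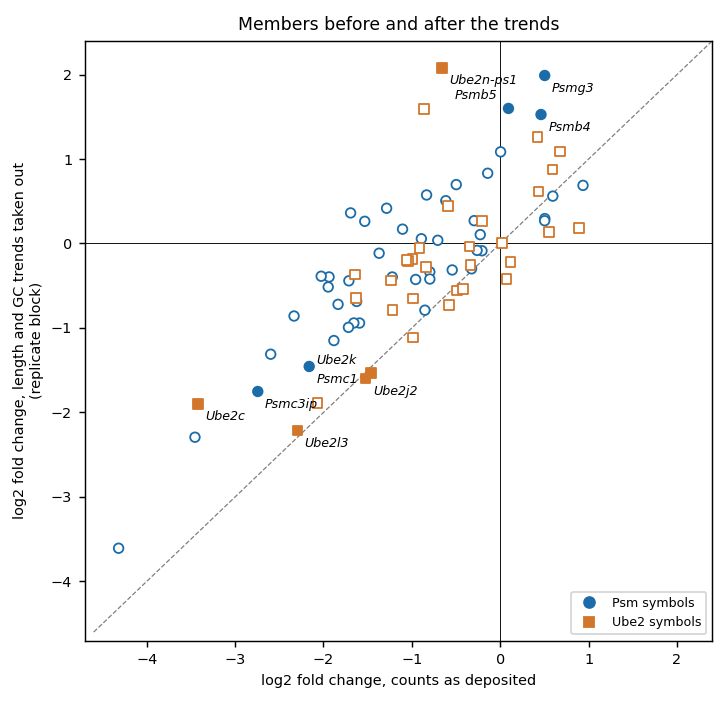
Log2 fold change of each tested member on the counts as deposited (x axis) and with length and GC trends taken out and the replicate block (y axis), with circles for Psm and squares for Ube2 symbols and filled points called on the y axis. Most points lie above the dashed line of equal values, and *Ube2l3*, *Ube2k* and *Ube2j2* lie near it.

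m6A is often found in the sequence GGACT, written here as DNA, and the principal transcripts were searched for these letters on the transcript strand. At least 1 match was present in 83.8% of tested members, 92.5% of tested protein-coding genes and 88.7% of all genes tested. Among transcripts under 2000 nt the shares were 75% of members and 78.0% of protein-coding genes. *Psma4*, the lowest alpha subunit, had none, nor did *Psma7*, *Psma1* and *Psma5*, so that 42.9% of the tested alpha ring held a match, against 85.7% of the beta ring and all 17 19S subunits. Matches per kb went with log2 fold change at a rho of -0.18 over members and 0.07 over protein-coding genes. A match is a description and does not show methylation or binding.

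Members at the ends of the range in each family were taken among those with a mean of at least 5 CPM. This leaves out *Psmb10*, *Psmg1*, *Psmc3ip* and *Psme2b*, which were also at the lower end. For each, the match nearest the stop codon that lies inside 1 exon is shown with 10 bases on each side. Sequences are from GENCODE M21 on GRCm38, 5′ to 3′ on the transcript strand, with GGACT in capitals. The windows are given so that the letters around the match can be read in transcripts low and high in RIP. The windows of *Ube2l3* and *Psmb2* run past the stop codon into the 3′ UTR. Low in RIP were the following, all with the A of GGACT in coding sequence, stop codon included.
Ube2c (chr2:164772013-164772037, plus strand): tatgatgtcaGGACTatcttgctct
Ube2l3 (chr16:17154120-17154144, minus strand): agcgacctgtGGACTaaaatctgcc
Ube2d3 (chr3:135465208-135465232, plus strand): tctcgggaatGGACTcagaagtatg
Psmc1 (chr12:100115876-100115900, plus strand): agatattgggGGACTggacaaccag
Psmb2 (chr4:126709567-126709591, plus strand): tccctaagcgGGACTcctaacgtca

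At the upper end, where no member was called, *Psme4* and *Ube2o* had theirs in coding sequence, and *Psmf1*, *Ube2e3* and *Ube2v1* in the 3′ UTR.
Psme4 (chr11:30876765-30876789, plus strand): tggtgtgcttGGACTtggtgcatgt
Psmf1 (chr2:151718193-151718217, minus strand): atactgcataGGACTacgggattcc
Ube2o (chr11:116540087-116540111, minus strand): ggccccactcGGACTccctatgaag
Ube2e3 (chr2:78920126-78920150, plus strand): tttacaatacGGACTtctgtgtata
Ube2v1 (chr2:167608666-167608690, minus strand): agcagttgtgGGACTgactactgct

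The number of matches did not order these members: at the lower end *Ube2l3* and *Ube2d3* had 6, *Psmc1* and *Psmb2* 2, *Ube2c* 1 and *Psma4* 0, and at the upper end *Psme4* and *Ube2o* had 5, *Psmf1* 4, *Ube2e3* 3, and *Ube2v1* and *Psmd2* 1. Over all tested members rho of log2 fold change with the number of matches was 0.20, and over protein-coding genes 0.40.

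Other genes of the pathway were taken from lists by role. *Ubb*, a ubiquitin gene, was lower in RIP at -1.88 ± 0.36. None of 9 tested E1 enzymes was called, where 9.78% of all genes tested were lower and 3.48% higher. Of 8 E2 enzymes without a Ube2 symbol 1 was lower, against 9.78% of all genes tested. This was *Atg3* (-1.59 ± 0.39), the E2 of LC3. With length and GC trends taken out and the replicate block none of the 8 was lower, against 4.88% of all genes.

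Of 11 proteasome-associated factors 4 were lower and 1 higher, against 9.78% and 3.48% of all genes tested. With length and GC trends taken out and the replicate block 1 was lower and none higher, against 4.88% and 4.45%. *Sem1*, a small subunit of the 19S particle whose symbol lies outside the naming rule, had input counts of 691 and 680 and RIP counts of 54 and 55 (-3.19 ± 0.36). *Pomp*, the chaperone of the 20S core, was at -1.49 ± 0.39 and *Txnl1* at -1.52 ± 0.40. The deubiquitinase *Uchl5* had input counts of 42 and 100 and RIP counts of 0 and 7, and passed the low-count filter through its inputs alone. *Ube3c*, a ligase that binds the proteasome, was higher at 1.27 ± 0.36, with an adjusted p at the threshold (0.049997, edgeR). Among 13 shuttle factors and p97 cofactors 1 was lower and 1 higher, against 9.78% and 3.48% of all genes tested. *Ubxn1* was lower (-1.95 ± 0.41), and none of the 13 was lower with the trends taken out and the block. *Vcp*, which encodes p97, was higher (1.32 ± 0.33), with input counts of 371 and 368 and RIP counts of 721 and 628. None of 8 tested regulators of proteasome genes was called, where 9.78% of all genes tested were lower and 3.48% higher. Of 46 tested Usp deubiquitinases none was lower and 1 was higher, against 9.78% and 3.48% of all genes tested. Their median transcript length was 4716 nt and their median log2 fold change 0.55. That they differ from the members beyond their length was not tested.

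Per length of gene, members spanned a wide range in the inputs. *Ube2c* led with 24.0 and 12.9 FPKM, followed by *Psmc1* with 15.8 and 13.1 FPKM and *Psma6* with 11.3 FPKM in both, and the spread of the *Ube2c* inputs covered the level of *Psmc1*. *Psmb2* (11.1 and 9.76 FPKM), *Psmb6* (11.0 and 7.68 FPKM) and *Psmb1* (9.16 and 8.64 FPKM) followed, and their ranges overlapped with each other or with *Psma6*. Among the non-ATPase subunits *Psmd8* had the highest mean (7.30 and 4.05 FPKM), and *Psmd7* (6.34 and 4.48 FPKM) lay within its spread. The gene length behind the deposited FPKM was worked back with the total counts of input replicate 2 as library size. It was 25631 nt for *Ube2d3* (1.33 and 1.12 FPKM), where its principal transcript has 3833 nt. Also longer were *Ube2c* (2698 against 967 nt), *Psmb6* (1947 against 798 nt) and *Psmd8* (3201 against 1540 nt), while *Psmb1* was shorter (1077 against 1758 nt). The order of members by FPKM depends on these lengths.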

How the data were processed

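Input and anti-YTHDF2 RIP libraries from papain-dissociated P0 retina were made by the authors with a stranded kit. Per the labels, reads were aligned to GRCm38 with STAR 2.5 and counted per gene with HTSeq. The annotation release and the strand setting are not given in the sources used here. The authors deposited raw read counts and FPKM per gene and library, and both were used as deposited.

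Counts were tested with edgeR 4.0.16 (R 4.3.3), filterByExpr (minimum count 10, minimum total 15), TMM and a quasi-likelihood fit without a block. With 2 against 2, an exact two-sided permutation test cannot go below p = 0.333, so p-values rest on the spread shared across genes. The members and gene lists were chosen with earlier results of these data known. Full statistics were given, per role, for the 3 largest rises and falls called at a mean of at least 5 CPM, the member with the highest mean input FPKM, the inducible beta subunits, and the pairs of constitutive and inducible subunits, *Psme1* with *Psme2*, and *Ube2v1* with *Ube2v2*; other members named were chosen after their values were seen.

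Length, GC content and motifs came from GENCODE M21 (52403 genes matched), and trends were fitted with mgcv 1.9.3 (basis size 8, genes with a mean of at least 20 counts). Alternatives were DESeq2 1.42.0, limma 3.58.1 on log2(FPKM + 1) and log2(FPKM + 0.1), other scalings and filters, a replicate block, and each library left out. The code was tested on simulated data. The labels number replicates 1 and 2 in both groups and the design text gives each replicate an input and a RIP library. Deviations of same-numbered libraries had a Spearman correlation of -0.032 over 13632 genes and -0.064 over 6858 genes with 50 counts or more in every library. Over those 6858 genes Pearson's r was 0.861 for input and 0.967 for RIP. The values of some single genes are not reported here.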

Additional observations from a re-analysis of the deposited data

How the results depend on the processing

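The 13 Psm and 6 Ube2 calls rest on 4 libraries, and low counts limit *Psmb10*, *Psmg1* and *Psme2b*. By library size alone the median of all genes moved from -0.05 to 0.27, 9 Psm and 3 Ube2 members were lower, 1 Psm and 1 Ube2 member passed the fold rule upwards, the medians were -0.57 (Psm), -0.59 (ubiquitin E2), -0.57 (19S ATPase) and 0.0081 (19S non-ATPase), and *Ube2cbp* turned to 0.074. No filter left 9 and 3 lower. With at least 10 counts in every library 14 Ube2 members passed the fold rule downwards. DESeq2 called 18 Psm and 7 Ube2 members lower. limma on log2(FPKM + 0.1) called 15 and 3 lower, with 1 Psm and 1 Ube2 member past the fold rule upwards and medians of -0.65 (Psm), -0.60 (ubiquitin E2), -0.63 (19S ATPase) and -0.060 (19S non-ATPase). With log2(FPKM + 1), 15 and 4 were lower, 11 and 2 passed the fold rule downwards, and the medians were -0.48 (Psm), -0.24 (Ube2 and ubiquitin E2), -0.52 (19S ATPase), -0.031 (19S non-ATPase) and -0.68 (alpha ring); the pseudocount compresses low genes by construction.

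With the replicate block 16 Psm and 7 Ube2 members were lower and 1 Psm member passed the fold rule upwards. All 19 members called without the block were called with it, and *Psma1*, *Psmd12*, *Psmg1* and *Ube2j2* were added; it changed no other call among members.

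With trends taken out and the replicate block, 2 Psm and 4 Ube2 members were lower, 3 and 1 higher, 6 Psm passed the fold rule downwards and 4 of each family upwards. Medians were -0.21 (Psm), -0.24 (Ube2 and ubiquitin E2), -0.19 (19S ATPase), -0.40 (alpha ring) and 0.42 (beta ring). *Psmb3* (0.26), *Psmb6* (0.42), *Psmb7* (0.70), *Psme2* (0.57), *Psmg4* (0.36), *Ube2cbp* (0.27) and *Ube2n-ps1* (2.08) turned. Without the block 5 and 5 were lower, 4 and 2 higher, with 6 Psm down and 4 of each family up by the fold rule, medians of -0.21 (Psm), -0.27 (Ube2), -0.31 (ubiquitin E2), -0.19 (19S ATPase), -0.39 (alpha ring) and 0.42 (beta ring), and *Psmb3* at 0.26, *Psmb6* at 0.42, *Psmb7* at 0.70, *Psme2* at 0.57, *Psmg4* at 0.56, *Ube2cbp* at 0.33 and *Ube2n-ps1* at 2.07.

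With each library left out, the lone library of a group being assumed to vary like the others, lower calls ranged from 0 to 26 (Psm) and 0 to 19 (Ube2), higher calls from 0 to 2 and 0 to 3, and fold-rule calls from 13 to 22 and 4 to 12 downwards and 0 to 1 upwards in each family. Medians ranged from -1.01 to -0.83 (Psm), -0.86 to -0.41 (Ube2), -0.91 to -0.41 (ubiquitin E2), -1.71 to -0.95 (alpha ring), -1.60 to -0.90 (beta ring), -1.07 to -0.60 (19S ATPase) and -0.68 to -0.25 (19S non-ATPase). *Psme3* (0.25, where the lowest was -1.06) and *Ube2v2* (-0.35, where the highest was 2.20) turned without input replicate 1, *Psmb5* (-0.33, where the highest was 0.68) without input replicate 2, and *Ube2cbp* (lowest -0.73) without input replicate 1 (0.072) or RIP replicate 1 (0.34). Why settings differed was not tested.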
